A study of Mus musculus with 6 samples.

Results

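The primary cilium is a single, non-motile antenna that grows from a centriole and gathers receptors and channels of several signalling pathways. It is built by intraflagellar transport (IFT), in which IFT-B trains carry cargo toward the tip and IFT-A trains bring it back. The BBSome coat moves membrane proteins out of the cilium, the transition zone at its base acts as a gate, and small GTPases of the ARL family load and unload lipid-anchored cargo. In liver, cholangiocytes carry primary cilia whereas most hepatocytes lack them, and inherited defects of the polycystins cause cysts of bile ducts and kidney. The genes described here were picked by symbol, as every Ift, Bbs or Nphp gene with a number and 16 further cilium genes named one by one. This gave 39 of the 22068 genes in the files. The rule works by symbol alone, but it was chosen with earlier results of these data known. They comprised 10 IFT-B genes, 4 IFT-A genes, 6 BBSome subunits, 2 chaperonin-like BBSome assembly factors, 3 small GTPases, 10 transition zone genes, 2 polycystins and 2 genes outside these groups, among them Ofd1 of the centriole.

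Polyadenylated RNA of mouse liver was sequenced from 3 control and 3 double-knockout (dKO) libraries, all from C57BL/6 animals 6 weeks old. Mst1 and Mst2 (gene symbols Stk4 and Stk3) are kinases of the Hippo pathway. Controls had the genotype Mst1-/-; Mst2fl/fl; alb-Cre-/-, and dKO animals had Mst1-/-; Mst2fl/fl; alb-Cre+/+, so every animal lacked Mst1 and the groups differed only in the Cre driven by the albumin promoter. The labels do not say that replicates are separate animals, and p-values then cover only the library-to-library spread, which may be technical. Whole-tissue RNA was used, and more cells of a type and more RNA per cell cannot be told apart. Values are RPKM, reads per kilobase of transcript scaled to the size of the library, so that levels may be compared between genes. Log2 changes are dKO minus control of log2(RPKM + 1), a scale on which changes of low genes appear too small. The 11062 genes averaging 1 RPKM or more over the libraries were tested, and a gene was called at a limma adjusted p under 0.05.

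Depth, estimated roughly from the spacing of low values, was 17.2 to 25.1 M reads per library, at which 1 RPKM stands for 17.2 to 25.1 reads per kilobase of transcript. Stk3 measured 6.00, 5.42 and 5.20 RPKM in control and 5.13, 4.25 and 5.32 RPKM in dKO libraries, and Stk4 measured 5.50, 4.69 and 4.66 against 5.84, 4.93 and 5.76 RPKM. Whole-gene levels cannot show whether an exon is missing, so the genotype is not checked by them. Summed levels of 10 hepatocyte markers were 54010 to 70320 RPKM in control and 50660 to 60410 RPKM in dKO libraries. This marks the libraries as liver. Of the 10 markers 0 were called higher and 4 lower, against 17.8% and 2.17% of all tested genes. The count lower was 2 with median-ratio scaling and 1 without control replicate 1, against 5.55% and 0.807% of all tested genes. The count higher was 1 with sample weights or without dKO replicate 3, against 37.4% and 9.1%. On the first principal component of all tested genes, dKO replicate 3 lay at 49.0 and dKO replicates 1 and 2 at 20.3 and 19.2. That library also had the highest level of the dKO group for 30 of the 39 cilium genes.

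Many cilium genes carry in their promoter an X-box, a pair of inverted short sites bound by RFX transcription factors, which drive ciliary genes in animals. RefSeq promoters (GRCm38.p6, 250 bases before to 50 after a start) were given for 33 of the 39 genes, and Ift122, Ift80, Ift81 and Tmem67 were among those without one. An X-box with 0 to 3 bases between its inverted sites, sought on both strands, lay in promoters of 5 of these 33 genes (15.2%). In promoters of the same length it was held by 131 of 7922 tested genes (1.65%) and 474 of all 27025 genes (1.75%). The core GTTGCC, which overlaps the X-box, was held by 16 of the 33 genes (48.5%) and by 14.5% of tested genes. The motif GGAATG, bound by the TEAD factors through which YAP acts on DNA, was held by 2 of the 33 genes, Pkd2 and Tctn2 (6.06%), and by 14.5% of tested genes. These are matches of letters, given as a description. The 5 X-box genes are printed because 2 of them, Ift57 and Tctn2, are among the genes that rose. Of the genes that rose, 7 had a promoter given. An X-box was held by 2 of these 7 and by 3 of the 26 other cilium genes with a promoter. GGAATG was held by 2 of the 7 and 0 of the 26. These splits were not tested. Capitals mark the X-box, and the strand shown is that of the gene.
Ift57, chr16:49699167-49699286, plus strand, with a pair of X-boxes: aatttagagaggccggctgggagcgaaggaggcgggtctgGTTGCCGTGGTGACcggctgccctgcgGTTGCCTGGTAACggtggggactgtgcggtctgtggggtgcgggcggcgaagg
Tctn2, chr5:124598647-124598740, plus strand: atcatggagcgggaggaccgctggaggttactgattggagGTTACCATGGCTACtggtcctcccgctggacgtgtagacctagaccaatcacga
Tctn1, chr5:122264411-122264440, minus strand: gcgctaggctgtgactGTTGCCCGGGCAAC
Ahi1, chr10:20952560-20952589, plus strand: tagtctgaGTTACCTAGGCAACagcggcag
Bbs1, chr19:4906605-4906634, minus strand: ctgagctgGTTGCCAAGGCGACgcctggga

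Cilium genes were mostly low in liver. All 39 had a value above 0 in each of the 6 libraries, and 34 had a mean under 5 RPKM. Ift20, an IFT-B subunit that also works at the Golgi, was the most abundant with a mean of 24.5 RPKM, and Nphp4 the least with 0.0588 RPKM. Summed over the 39 genes, control libraries held 88.0, 99.8 and 99.8 RPKM and dKO libraries 137.5, 127.6 and 172.6 RPKM. The groups did not overlap in this sum, and dKO replicate 3 was the highest.

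**Figure D1:**
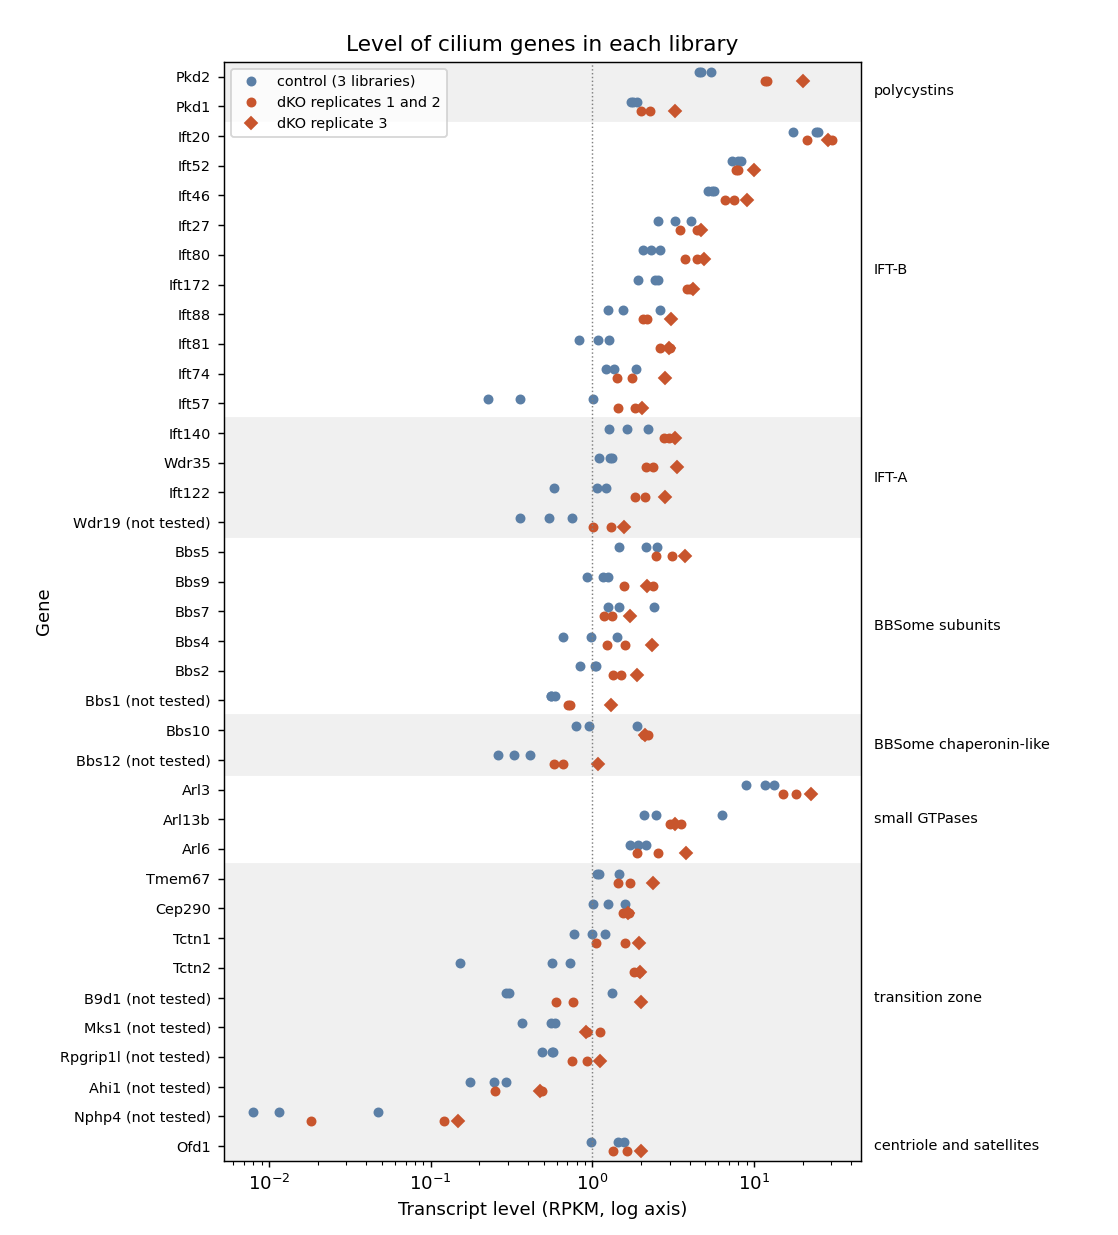
Transcript level of 37 of the 39 cilium genes in each library, in RPKM on a log axis, grouped by role; blue points are control libraries, red circles dKO replicates 1 and 2, red diamonds dKO replicate 3, and the dotted line marks 1 RPKM. Pkd2, Ift81 and Tctn2 show dKO points clear of the control points, while those of Ift20 and Ift52 overlap.

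Of the 39 genes 31 were tested, and 10 rose in dKO liver while 0 fell. The 10 were Pkd2, Ift81, Tctn2, Ift80, Ift172, Ift57, Wdr35, Ift122, Arl3 and Ift140, which make 32.3% of those tested, against 17.8% of all tested genes called higher and 2.17% called lower by limma with Benjamini-Hochberg adjustment. At an unadjusted limma p under 0.05, 15 were higher and 0 lower, and with quantile normalization 8 and 1. The share of all tested genes at this unadjusted p was not computed. No alternative fit called any cilium gene lower after adjustment. Log2 changes were above 0 for 29 of the 31 genes, as for 76.1% of all tested genes, and their median was 0.41 against 0.23 for all tested genes. Every dKO library lay above every control library for 15 of the 31 (48.4%), against 38.3% of all tested genes, and the reverse held for 0 of the 31, against 6.73%. The members that passed the filter include some that reached it only through their dKO level, so these shares are a description. Of the called genes this holds for Tctn2, Ift57 and Ift122.

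**Figure D2:**
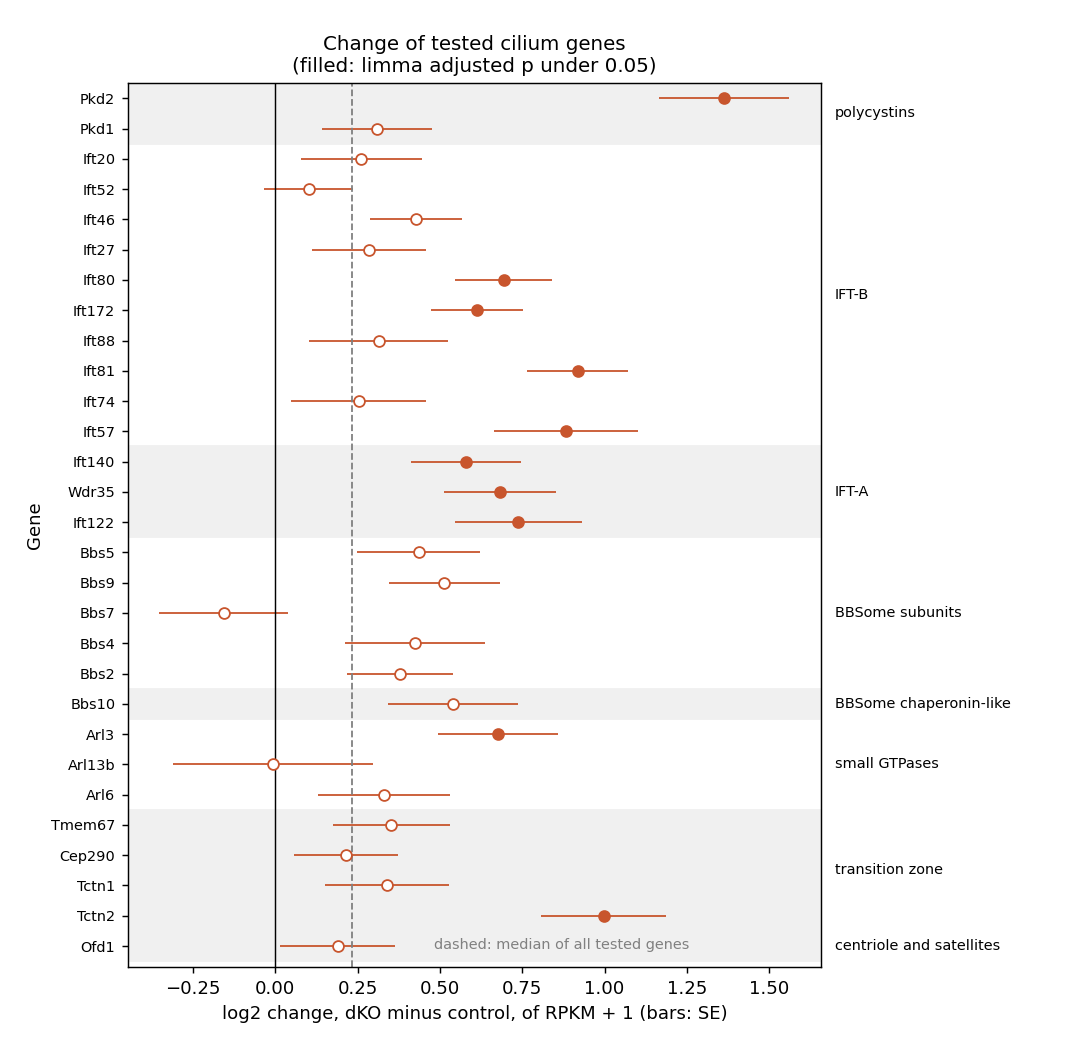
Log2 change (dKO minus control, of RPKM + 1) of 29 of the 31 tested cilium genes with its standard error, grouped by role; filled points passed a limma adjusted p of 0.05, and the dashed line is the median of all tested genes at 0.23. Pkd2 has the largest change at 1.36, all 3 tested IFT-A genes are filled, and no tested BBSome gene is.

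Of the polycystins, Pkd2 rose, with the largest log2(RPKM + 1) change of the tested cilium genes; as a ratio of means, or with a pseudocount of 0.1, Tctn2 and Ift57 changed more. Pkd2 encodes polycystin-2, a cation channel of the ciliary membrane. Pkd2 measured 4.72, 4.56 and 5.38 RPKM in control and 11.96, 11.7 and 20 RPKM in dKO libraries. The groups lay far apart, with dKO replicate 3 highest. Its mean went from 4.89 ± 0.43 to 14.6 ± 4.72 RPKM (SD, n = 3 each), 2.98-fold, with a log2 change of 1.36 ± 0.20 (SE) and a limma adjusted p of 0.00447. Its partner gene Pkd1, which encodes the large membrane receptor polycystin-1, measured 1.78, 1.73 and 1.88 RPKM in control and 1.99, 2.28 and 3.23 RPKM in dKO. The Pkd1 groups did not overlap, but the change of 0.31 ± 0.17 did not pass (limma adjusted p = 0.208).

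Among 10 IFT-B genes, all tested, 4 rose: Ift81, Ift80, Ift172 and Ift57. Ift81, which binds tubulin together with Ift74, measured 0.821, 1.27 and 1.08 RPKM in control and 3.04, 2.61 and 2.99 RPKM in dKO libraries. Every dKO value was more than any control value, and the 3 dKO values were close together. The change was 2.72-fold (log2 0.92 ± 0.15, limma adjusted p = 0.00741). Ift80, a peripheral subunit mutated in skeletal ciliopathies, measured 2.30, 2.04 and 2.62 RPKM in control and 3.75, 4.44 and 4.93 RPKM in dKO, 1.89-fold (log2 0.69 ± 0.15, limma adjusted p = 0.0159). Ift172, the largest IFT-B subunit, measured 1.92, 2.44 and 2.54 against 3.87, 4.01 and 4.21 RPKM, 1.75-fold (log2 0.61 ± 0.14, limma adjusted p = 0.0198). Neither of these showed overlap between the groups. Ift57, whose promoter with a pair of X-boxes is shown above, measured 0.227, 1.00 and 0.357 RPKM in control and 1.44, 1.83 and 2.03 RPKM in dKO. Control replicate 2 stood above the other controls, so the fold of 3.34 was 6.05 without it; its log2 difference was 0.88 ± 0.22 (limma adjusted p = 0.0262).

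The other 6 IFT-B genes did not pass. Ift20 measured 24.3, 17.5 and 24.9 RPKM in control and 30.3, 21.3 and 28.8 RPKM in dKO, and the groups overlapped (log2 0.26 ± 0.18, limma adjusted p = 0.32). Ift46 came nearest, with control libraries at 5.62, 5.48 and 5.19 and dKO libraries at 6.56, 7.48 and 9.07 RPKM, which did not overlap (log2 0.43 ± 0.14, limma adjusted p = 0.0603). Ift74, which pairs with Ift81, stood at 1.48 ± 0.34 and 1.99 ± 0.72 RPKM and overlapped. Ift88, loss of which abolishes cilia in mice, stood at 1.80 ± 0.72 and 2.44 ± 0.56 RPKM, and Ift27 at 3.30 ± 0.76 and 4.21 ± 0.65 RPKM, again with overlap. Ift52 changed least of the family, at 7.85 ± 0.53 and 8.54 ± 1.26 RPKM. The 3 most abundant IFT-B genes, Ift20, Ift52 and Ift46, were thus not among the 4 that rose.

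All 3 tested IFT-A genes rose, and the fourth, Wdr19, was too low to be tested. Ift122, a core subunit, measured 0.582, 1.07 and 1.21 RPKM in control and 1.84, 2.10 and 2.80 RPKM in dKO libraries. Its groups lay apart, at 2.36-fold (log2 0.74 ± 0.19, limma adjusted p = 0.0307). Wdr35, also called IFT121, measured 1.09, 1.33 and 1.28 against 2.14, 2.37 and 3.33 RPKM, 2.12-fold (log2 0.68 ± 0.17, limma adjusted p = 0.0265). Ift140 measured 1.27, 2.21 and 1.64 against 2.99, 2.79 and 3.23 RPKM, 1.76-fold (log2 0.58 ± 0.17, limma adjusted p = 0.042). No IFT-A gene showed overlap between the groups, and dKO replicate 3 was the highest library for each. Wdr19, also called IFT144, measured 0.537, 0.7498 and 0.358 RPKM in control and 1.01, 1.30 and 1.57 RPKM in dKO, without overlap.

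No BBSome subunit passed. Bbs5, the most abundant, measured 1.46, 2.16 and 2.52 RPKM in control and 3.09, 2.48 and 3.76 RPKM in dKO libraries, and dKO replicate 2 fell within the control range (log2 0.43 ± 0.19, limma adjusted p = 0.125). Bbs9 came nearest with 1.11 ± 0.17 and 2.03 ± 0.42 RPKM and no overlap (limma adjusted p = 0.0613). Bbs2 stood at 0.976 ± 0.12 and 1.57 ± 0.27 RPKM, also without overlap, and Bbs4 at 1.019 ± 0.39 and 1.71 ± 0.56 RPKM with overlap. Bbs7 was one of only 2 tested cilium genes with a negative log2 change, at 1.71 ± 0.61 and 1.40 ± 0.27 RPKM (log2 -0.16 ± 0.20, limma adjusted p = 0.577), and control replicate 1 was its highest library at 2.40 RPKM. Bbs10, which helps to assemble the complex, measured 0.796, 0.954 and 1.87 RPKM in control and 2.09, 2.21 and 2.12 RPKM in dKO libraries. The lowest dKO library was above the highest control, and its limma adjusted p of 0.0843 became 0.0401 without control replicate 3, with a range over 16 alternatives of 0.0401 to 0.598. Bbs1 and Bbs12 were too low to be tested. Bbs1 measured 0.556, 0.590 and 0.554 RPKM in control and 0.727, 0.704 and 1.30 RPKM in dKO, and Bbs12 measured 0.261, 0.327 and 0.412 against 0.657, 0.578 and 1.08 RPKM.

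Of the 3 small GTPase genes, Arl3 rose. Its product releases lipid-anchored proteins from their carriers inside the cilium. Arl3 measured 8.91, 11.7 and 13.2 RPKM in control and 15.2, 18.2 and 22.5 RPKM in dKO libraries. No dKO value lay within the control range, at 1.65-fold (log2 0.68 ± 0.18, limma adjusted p = 0.0339). Arl13b, which activates Arl3, measured 2.08, 6.34 and 2.47 RPKM in control and 3.53, 3.01 and 3.25 RPKM in dKO. Control replicate 2 was the highest of all 6 libraries, and the log2 change was -0.008 ± 0.30 (limma adjusted p = 0.987). Arl6, which recruits the BBSome to membranes, stood at 1.92 ± 0.22 and 2.74 ± 0.98 RPKM with overlap.

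Of 10 transition zone genes 5 were tested, and Tctn2 rose, a gene that reached the filter only through its dKO level. Tctn2 encodes a tectonic protein of the gate, and its promoter holds the X-box shown above. Tctn2 measured 0.153, 0.722 and 0.560 RPKM in control and 1.95, 1.81 and 1.97 RPKM in dKO libraries. The dKO values were nearly equal and far above the controls, at 3.996-fold (log2 1.00 ± 0.19, limma adjusted p = 0.0109). Tctn1, of the same family as Tctn2 and also with an X-box, stood at 0.982 ± 0.21 and 1.52 ± 0.45 RPKM with overlap. Tmem67, which encodes the transmembrane receptor meckelin, stood at 1.21 ± 0.21 and 1.83 ± 0.49 RPKM, and the large scaffold gene Cep290 at 1.28 ± 0.28 and 1.64 ± 0.07 RPKM, both with overlap.

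The other 5 genes of the zone were too low to be tested. Mks1 measured 0.366, 0.555 and 0.585 RPKM in control and 0.928, 1.11 and 0.919 RPKM in dKO, and Rpgrip1l measured 0.488, 0.571 and 0.562 against 0.931, 0.747 and 1.12 RPKM. Neither showed overlap. B9d1, which works with Mks1, had 0.294, 1.32 and 0.304 RPKM in control and 0.757, 0.597 and 1.98 RPKM in dKO, with control replicate 2 within the dKO range. Ahi1 stood at 0.238 ± 0.06 and 0.404 ± 0.13 RPKM and Nphp4 at 0.0223 ± 0.02 and 0.0954 ± 0.07 RPKM, both with overlap. In all, 5 of the 8 untested cilium genes had every dKO library above every control library, namely Wdr19, Bbs1, Bbs12, Mks1 and Rpgrip1l. This held for 38.3% of all tested genes. The share among all untested genes was not computed, so the count is a description. In a fit without a filter none of the 8 passed: limma adjusted p was lowest for Wdr19 at 0.063, Mks1 at 0.0723 and Bbs12 at 0.0994.

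Ofd1, a protein of the distal centriole, did not pass. It measured 1.44, 1.56 and 0.986 RPKM in control and 1.63, 1.34 and 1.99 RPKM in dKO libraries (log2 0.19 ± 0.17, limma adjusted p = 0.445). The groups overlapped, with dKO replicate 2 within the control range.

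How many cilium genes were called depended on how libraries were scaled. Median-ratio scaling moved the median log2 change of all tested genes from 0.23 to -0.005 and the share of increases among all calls from 89.1% to 58.7%. Under it 4 of the 31 cilium genes were called higher (12.9%), against 7.89% of all tested genes, and 0 were called lower. These were Pkd2 (log2 1.11 ± 0.17, limma adjusted p = 0.00859), Ift81 (0.74 ± 0.13, 0.0141), Tctn2 (0.87 ± 0.18, 0.0241) and Wdr35 (0.50 ± 0.13, 0.0484). The median of the cilium genes was then 0.22. Upper-quartile scaling gave 6 called, against 8.62% of all tested genes, and quantile normalization 3, against 6.57%. Without a filter all 39 were tested and 7 called higher (17.9%), against 8.48%. At an adjusted p under 0.01 only Pkd2 and Ift81 were called, against 4.43% of all tested genes.

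Single libraries mattered as well. Without control replicate 1, 2 or 3 there were 3, 10 and 7 cilium genes called higher, against 6.84%, 17.9% and 8.59% of all tested genes. Without dKO replicate 1, 2 or 3 there were 7, 6 and 5, against 10.5%, 14.1% and 9.10%. Pkd2, Ift81 and Tctn2 kept their call in all 16 alternatives that keep the threshold, the highest limma adjusted p being 0.0267, 0.0318 and 0.0429. Ift80 lost it without control replicate 1, Ift172 without control replicate 1 or dKO replicate 1, and Ift57 without control replicate 1, control replicate 3 or dKO replicate 2, and it fell under the filter without dKO replicate 3. Wdr35 lost it without control replicate 1, control replicate 3 or dKO replicate 3, and Arl3 without control replicate 1, dKO replicate 2 or dKO replicate 3. Ift122 and Ift140 lost it without any one library other than control replicate 2. Over the alternatives limma adjusted p reached 0.119 for Ift80, 0.178 for Ift172, 0.111 for Ift57, 0.13 for Wdr35, 0.124 for Arl3, 0.142 for Ift122 and 0.309 for Ift140. Gene bodies of Ift122 and Ift140 overlap those of Mbd4 and Tmem204 in RefSeq, and the sources used here do not say whether counting used strand.

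**Figure D3:**
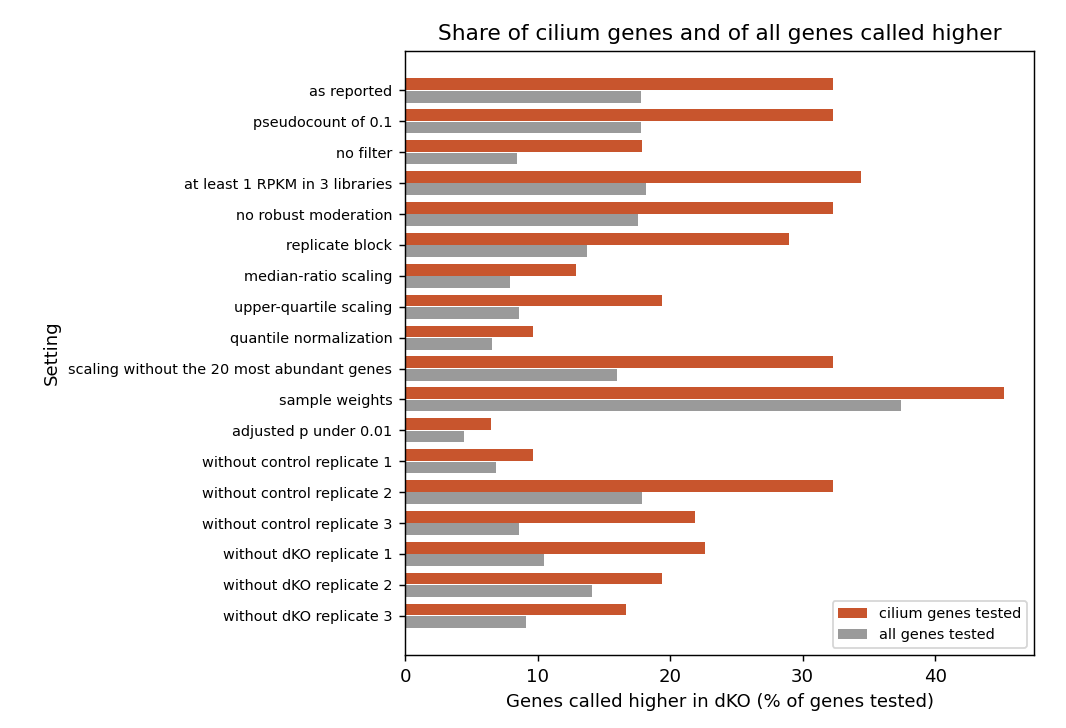
Share of genes called higher in dKO (percent of genes tested) under each processing setting, in red for the tested cilium genes and in grey for all tested genes. The red bar is the longer one in every setting, at 32.3% against 17.8% as reported, and 12.9% against 7.89% with median-ratio scaling.

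Genes outside the rule, of the cilium or of processes linked to it, were gathered in 11 lists. Not all of them are specific to cilia, Rfx5 and Nek2 among the called ones. Their 81 tested members held 24 calls higher (29.6%, against 17.8% of all tested genes) and 0 lower. After median-ratio scaling 12 were called higher (14.8%, against 7.89%) and 0 lower. Some of these members reached the filter only through their dKO level, Glis2 and Foxj1 among them, so these shares are a description. Leaving out control replicate 1 or dKO replicate 3 gave 11 in place of 24, against 6.84% and 9.1% of all tested genes. Leaving out control replicate 3 gave 14 and leaving out dKO replicate 1 gave 15, against 8.59% and 10.5%. Calls thus became fewer over all tested genes too. With quantile normalization 8 were called higher and 1 lower, against 6.57% and 5.01% of all tested genes. The 1 called lower was Traf3ip1, the IFT-B subunit also called IFT54 (log2 -0.48, limma adjusted p = 0.0463, against -0.13 and 0.574 with the values as deposited). Fibrocystin, the product of Pkhd1, is a ciliary membrane protein of bile ducts, and Pkhd1 rose 5.28-fold, from 1.24 ± 0.30 to 6.54 ± 2.64 RPKM (limma adjusted p = 0.00361). Bicc1, which encodes an RNA-binding protein that acts on Pkd2 mRNA, rose from 2.44 ± 1.62 to 26.1 ± 10.2 RPKM (limma adjusted p = 0.00365), 10.7-fold or, without control replicate 3, 17.4-fold. These were the 2 tested genes of their list. Among other transition zone and inversin compartment genes 4 of 13 rose, among them Glis2, a zinc finger factor mutated in nephronophthisis (9.23-fold, and 5.80-fold without dKO replicate 3), and the gate scaffold Cc2d2a (2.28-fold).

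Ciliary motors had 5 of 9 tested genes called higher, among them Tctex1d2, a light chain of the retrograde motor (3.35-fold) that lost its call with quantile normalization. Tctex1d2, Dync2li1 and Dynlt1b reached the filter only through their dKO level, with control means of 0.867, 0.405 and 0.696 RPKM. The count of motors called was 1 without control replicate 1 or dKO replicate 3, and 3 without control replicate 3 or dKO replicate 1. Of IFT and BBS genes under other symbols 3 of 12 rose, led by Ttc21b, the IFT-A subunit also called IFT139 (2.24-fold), and the count was 1 on leaving out control replicate 1, control replicate 3, dKO replicate 1 or dKO replicate 3. Ttc21b itself lost its call without control replicate 3 and with quantile normalization (limma adjusted p of up to 0.0683 over the alternatives). Of 10 basal body genes 2 rose, and 1 did without any single library, which was Fbf1, a transition fibre gene that rose 2.98-fold. Ciliary disassembly genes had 2 of 6 called higher, led by the scaffold gene Nedd9 (4.25-fold), with 1 called without control replicate 1 or dKO replicate 2. Tubulin modification genes had 0 of 8 called. Counts of so few genes are to be read against the 17.8% of all tested genes called higher. Counts with a library left out are to be read against the shares given above for the same fit.

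Of 16 Hedgehog pathway genes 5 were tested and 2 called higher. Smo, the receptor that enters the cilium when the pathway is on, rose from 2.61 ± 0.25 to 7.71 ± 2.71 RPKM (limma adjusted p = 0.00832) and was called in all 16 alternatives, while the other call, Ptch1, was kept in 3 of 16. Of 6 tested RFX and FOXJ factors Rfx5 and Foxj1 were called, and neither was after median-ratio scaling or on leaving out control replicate 1, control replicate 3, dKO replicate 1 or dKO replicate 3. Foxj1, a factor of motile cilia, measured 0.0671, 0.0463 and 0.278 RPKM in control and 1.17, 0.800 and 4.34 RPKM in dKO libraries. Rfx3, a factor of primary ciliogenesis, was too low to be tested, at 0.428, 0.529 and 0.641 against 0.813, 0.762 and 1.08 RPKM. Of 9 genes of lipidated cargo and Rab trafficking 2 were called, a share near the 17.8% of all tested genes, and 0 after median-ratio scaling or without any one of 5 libraries, dKO replicate 1 being the exception with 1.

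**Figure D4:**
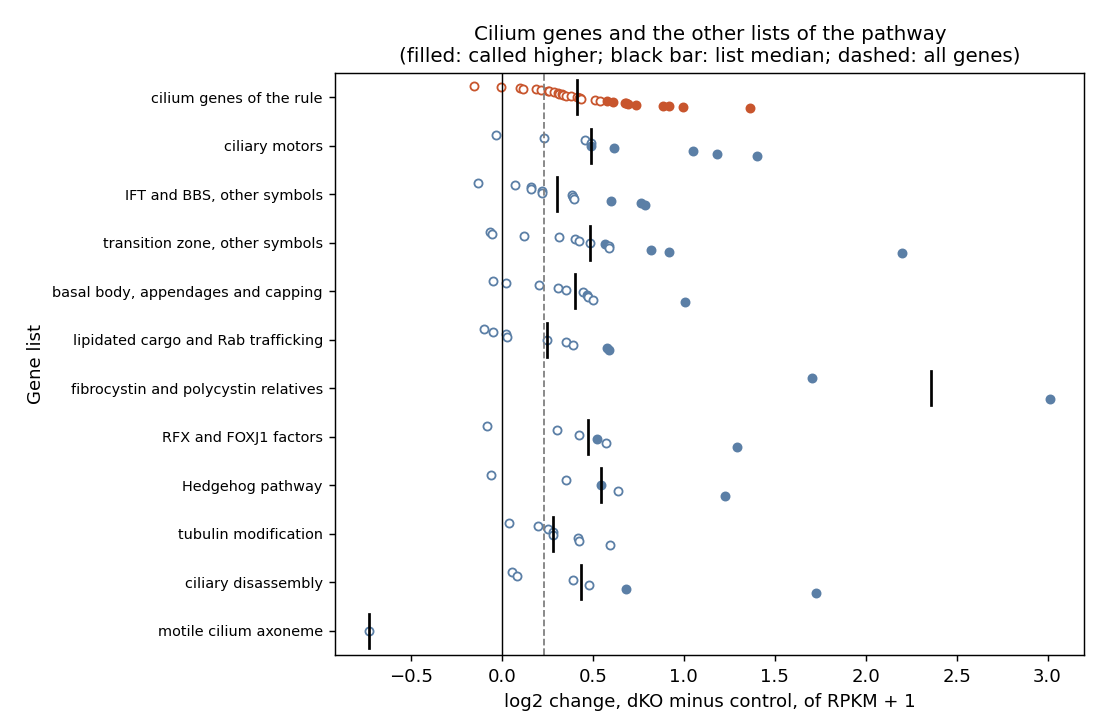
Log2 change (dKO minus control, of RPKM + 1) of tested genes in the cilium set (red) and in 11 further lists of the pathway (blue); filled points were called higher, black bars are list medians and the dashed line is the median of all tested genes. Only 2 genes stand in the list of fibrocystin relatives, both filled, and the list of motile axoneme genes has 1 tested gene, which is open.

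Cholangiocyte markers, from the main ciliated epithelium of liver, were called higher for 9 of 10 tested, against 17.8% of all tested genes. The count was 8 with median-ratio scaling, 7 with quantile normalization and 6 without control replicate 1. The shares of all tested genes were then 7.89%, 6.57% and 6.84%. The sum of all 15 of these markers was 95.7, 97.9 and 152.8 RPKM in control and 626.3, 452.4 and 1165 RPKM in dKO libraries, and none of the 15 was at 0 in all libraries. Spp1, an abundant secreted protein gene, gave 20.9, 18.7 and 64.7 RPKM of these control sums and 454.0, 305.5 and 909.7 RPKM of the dKO sums. The dKO libraries had the order replicate 3, then 1, then 2 in this sum, in the sum of the cilium genes, and in the sums of the macrophage and sinusoidal endothelial markers. Krt7, a keratin gene that defines cholangiocytes, was low and measured 0.364, 0.175 and 0.241 RPKM in control and 0.749, 0.946 and 1.06 RPKM in dKO libraries. Cell cycle genes, whose activity goes with loss of cilia in dividing cells, were called higher for 4 of 8 and, after median-ratio scaling, for 2, with sums of 31.8 to 37.98 against 57.7 to 64.1 RPKM. Stellate cell markers had 1 of 11 called higher and 1 lower (180.3 to 202.9 against 194.9 to 321.0 RPKM), sinusoidal endothelial markers 0 of 10 (130.3 to 140.1 against 144.3 to 160.0 RPKM), and macrophage markers 1 of 8 higher (109.8 to 226.4 against 181.1 to 265.0 RPKM), a count that was 5 without control replicate 2. The shares of these 3 lists called higher lie below the 17.8% of all tested genes called higher, and 2.17% were called lower. Their median log2 changes were nevertheless 0.51 for stellate cell, 0.16 for sinusoidal endothelial and 0.54 for macrophage markers, against 0.23 for all tested genes. With median-ratio scaling 1 macrophage marker was called lower, against 5.55% of all tested genes. None of the 6 lymphocyte markers was high enough to be tested (1.87 to 2.81 against 2.04 to 3.01 RPKM). The part of these cell types in the change of the cilium genes was not tested.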

How the data were processed

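RNA of 6 liver libraries (3 control, 3 dKO) was used. The authors deposited 1 RPKM value per gene and library. The submitters' processing notes name the build mm9; the aligner, counter and annotation are not given in the sources used here. File headers name no unit; RPKM is an assumption that the values do not contradict. Their low end among single-transcript genes lay within 0.15 of a whole read for 71.4% to 79.1% of values per library, at a spacing fitted to those same values. Each library also held 78 to 107 genes above 0 but under 0.0001 RPKM, far less than 1 read at these depths, which a count of whole reads would not give, so the depth is approximate. On the log2(RPKM + 1) scale, limma 3.58.1 (R 4.3.3) was fitted to all genes averaging 1 RPKM or more, with trend and robust moderation and no block, with Benjamini-Hochberg adjustment; the code was tested on simulated data. Members, lists, tests and alternatives were chosen with earlier results of these data known. The rule for named genes was each called member and the most abundant tested member of each role, with the value of every library, and at most the 3 called genes of smallest p per further list. Library values of other members, and Rfx3, Krt7, Spp1, Gli1, Rsph4a and Dnaic1, were picked after their values were seen. The same holds for the mention of Ccdc39, Spag6 and Ccdc114. For 2 members, counted in all totals, individual values are not reported here. The core GTTGCC was added after the X-box was seen. Alternatives comprised 4 scalings, omission of the filter or a minimum of 1 RPKM in 3 libraries instead, 0.1 as pseudocount, plain moderation, a replicate block, sample weights, an adjusted p under 0.01 and each library left out. Figures used matplotlib 3.10.9.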

Additional observations from a re-analysis of the deposited data

How the results depend on the processing

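Members called higher numbered 10 as reported. They numbered 4 with median-ratio scaling, 6 with upper-quartile scaling, 3 with quantile normalization and 2 at an adjusted p under 0.01. With 1 library left out they numbered 3 to 10, and other alternatives gave 7 to 14. The 14 came with sample weights, at 45.2% of tested members against 37.4% of all tested genes. Members called lower numbered 0 under each of the 17 alternatives. The median log2 change of the tested members, 0.41, was 0.22 with median-ratio scaling and 0.051 with quantile normalization. Among genes that were not called, the Ift20 log2 change turned to -0.016 with median-ratio scaling and that of Ofd1 to -0.17 with quantile normalization. The scalings differ in what they hold equal between libraries; the cause of these shifts was not tested. Of 748 values of 47 named genes under the alternatives, 587 kept their direction and side of the threshold, 158 lost the call, 1 gained it (Bbs10 without control replicate 3) and 2 turned. Deviations of same-numbered libraries correlated at -0.081, -0.101 and -0.010, and 0 of the 6 libraries correlated best with their own number. No pairing by replicate number was seen in this way, but with 3 libraries per group it cannot exclude one. With a replicate block 9 members were called higher (29%, against 13.7% of all tested genes), and Ift140 lost its call (limma adjusted p = 0.0735). Most members are low, and at these depths a change of a gene under 1 RPKM rests on few reads.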

Other observations

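Genes of the motile cilium axoneme, which normal liver has little use for, were mostly near 0: of 13 in the files only Rsph4a, a radial spoke gene, was tested, at 5.75, 7.18 and 6.38 RPKM in control and 4.03, 1.41 and 6.38 RPKM in dKO libraries (limma adjusted p = 0.191). Dnaic1, a dynein intermediate chain gene of motile cilia, measured 1.78, 0.448 and 2.36 RPKM in control and 0.495, 0.207 and 0.148 RPKM in dKO, with control replicate 2 below dKO replicate 1. The sum of the 13 axoneme genes was 8.22 to 9.52 RPKM in control and 2.52 to 9.71 RPKM in dKO, and Rsph4a gave most of it in every library. Foxj1, the factor of motile ciliogenesis described above, was higher in each dKO library than in each control library. So were the axoneme genes Ccdc39, Spag6 and Ccdc114, which lay near 0 and were not tested, while the other axoneme genes overlapped. The share among all untested genes was not computed. These genes were picked for mention after their values were seen.

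Gli1, a target gene that reports Hedgehog activity, was low. It measured 0.0472, 0.0434 and 0.117 RPKM in control and 0.125, 0.0256 and 0.0336 RPKM in dKO libraries, with overlap, in the same libraries in which Smo was higher.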
